A study of Homo sapiens with 9 samples.

Results

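The RNAs described here are the antisense noncoding RNAs of MOLM-13 cells, that is, genes whose symbol is that of another gene followed by -AS and a number. They were chosen by their symbol and by a measured value, a mean of at least 20 estimated counts over all 9 libraries, with EPB41L4A-AS1 left out. This gave 434 of the 56541 genes in the table and of its 1713 antisense symbols, of which 1058 were at 0 in every library. Because the mean runs over all groups, an RNA seen in only 1 group could enter. The last RNAs inside the limit were RDH10-AS1 (mean 20.6), EP300-AS1 (20.9) and DMTF1-AS1 (21.1), and the first outside were PTOV1-AS1 (19.9), PTPRJ-AS1 (19.8) and SAP30BP-AS1 (19.6).

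MOLM-13 is an established human acute myeloid leukaemia line of peripheral blood origin. It was studied in 3 groups of 3 libraries, all from cells kept for 4 days with doxycycline at 200 ng/µL. In shCONTROL the cells carried a control hairpin and their total RNA was sequenced, in shBCLAF1 the hairpin was directed against BCLAF1, a nuclear RNA-associated protein, and in the RIP the RNA was that recovered with BCLAF1 from shCONTROL cells. The RNA-seq libraries came from fewer cells than the RIP libraries, and no mock precipitation is labelled. Nothing in the labels says that replicates were separate cultures, so p-values measure the spread between these libraries.

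A natural antisense RNA is transcribed from the strand opposite to another gene, called here its sense gene, and may overlap it head to head, tail to tail or wholly inside it. Many antisense RNAs are spliced, polyadenylated and retained in the nucleus, and single examples are known to act on their sense gene through the chromatin, the splicing or the stability of its RNA, while for most no function is known. In blood cells such RNAs accompany transcription factor genes of the leukaemia programme, among them RUNX1, MEIS1, MEF2C, MYB and the HOXA cluster.

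A sense gene of the matching symbol was in the table for 425 of the 434 RNAs. The other 9 were FOXD2-AS1, TRD-AS1, CCDC144NL-AS1, MYL12-AS1, ZNF295-AS1, HOXA-AS2, HOXA-AS3, TRG-AS1 and ZNF252P-AS1. The 425 had 416 distinct sense genes, because 18 RNAs shared 9 of them, such as MEF2C-AS1 and MEF2C-AS2. In the RefSeq gene table (GRCh38.p14) both partners had a position for 406 pairs, and the gene bodies overlapped in 346 and lay apart in 60. Both strands were known for 277 pairs. The nearest start sites lay within 1 kb of each other in 143, the bodies overlapped with starts further apart in 123, and 10 did neither. The remaining pair, FAM131B-AS2 with FAM131B, was annotated on the same strand.

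The RefSeq start windows of 5 RNAs on which the results below turn are shown, each from 250 bases before to 50 after a start site on GRCh38.p14. COA6-AS1, BRWD1-AS2 and UBQLN1-AS1 were among the most enriched in the RIP and start close to their sense gene, RUNX1-AS1 was among the most depleted and starts deep inside its sense gene, and VPS9D1-AS1 fell after knock-down while VPS9D1 rose. Capitals mark every match on either strand to GGGCGG (the GC box), CCGGAAG (an ETS-type site), CCAAT or TATAAA, which do not overlap here.
COA6-AS1, chr1:234373354-234373653, minus strand: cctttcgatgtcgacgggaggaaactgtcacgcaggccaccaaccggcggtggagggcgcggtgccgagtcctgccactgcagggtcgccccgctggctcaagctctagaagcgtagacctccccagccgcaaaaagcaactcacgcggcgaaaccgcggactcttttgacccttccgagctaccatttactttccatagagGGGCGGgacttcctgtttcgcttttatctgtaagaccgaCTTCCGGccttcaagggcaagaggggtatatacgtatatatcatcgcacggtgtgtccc
BRWD1-AS2, chr21:39313657-39313956, plus strand: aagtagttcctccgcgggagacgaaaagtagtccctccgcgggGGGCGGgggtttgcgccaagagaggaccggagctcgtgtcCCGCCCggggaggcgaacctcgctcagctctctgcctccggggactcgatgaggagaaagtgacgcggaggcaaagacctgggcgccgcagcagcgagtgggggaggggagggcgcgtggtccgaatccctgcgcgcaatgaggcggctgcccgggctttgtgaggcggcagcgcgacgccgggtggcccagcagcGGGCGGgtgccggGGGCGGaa
UBQLN1-AS1, chr9:83708081-83708380, plus strand: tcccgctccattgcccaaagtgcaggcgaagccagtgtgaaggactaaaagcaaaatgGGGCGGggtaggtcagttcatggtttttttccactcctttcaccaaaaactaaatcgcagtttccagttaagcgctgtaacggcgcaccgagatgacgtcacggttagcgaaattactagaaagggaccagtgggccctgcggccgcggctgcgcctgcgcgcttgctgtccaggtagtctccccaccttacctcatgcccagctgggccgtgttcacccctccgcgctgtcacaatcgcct
RUNX1-AS1, chr21:34836063-34836362, plus strand: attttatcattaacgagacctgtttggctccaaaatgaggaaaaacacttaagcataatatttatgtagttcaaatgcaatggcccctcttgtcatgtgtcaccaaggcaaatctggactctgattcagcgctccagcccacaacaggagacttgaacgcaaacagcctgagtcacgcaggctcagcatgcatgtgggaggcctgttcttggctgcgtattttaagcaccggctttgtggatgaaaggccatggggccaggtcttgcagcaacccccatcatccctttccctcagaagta
VPS9D1-AS1, chr16:89711606-89711905, plus strand: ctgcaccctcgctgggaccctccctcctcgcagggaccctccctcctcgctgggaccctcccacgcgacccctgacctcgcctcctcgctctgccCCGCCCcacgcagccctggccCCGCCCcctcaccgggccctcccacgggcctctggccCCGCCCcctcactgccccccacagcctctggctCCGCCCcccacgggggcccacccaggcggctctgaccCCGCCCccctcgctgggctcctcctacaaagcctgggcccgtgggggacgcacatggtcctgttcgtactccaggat

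The COA6-AS1 start lies 280 bases from the nearest COA6 start, that of BRWD1-AS2 275 bases from a BRWD1 start and that of UBQLN1-AS1 shown here 373 bases from the UBQLN1 start, each on the opposite strand. The RUNX1-AS1 start lies 52386 bases from the nearest listed RUNX1 start. Its window held 6 CG dinucleotides, against 26, 36 and 21 in the windows of COA6-AS1, BRWD1-AS2 and UBQLN1-AS1. GGGCGG stood 5 times in the VPS9D1-AS1 window, 4 times in that of BRWD1-AS2 and never in that of RUNX1-AS1. Over the 385 windows listed for 322 of the antisense symbols, 55.6% held GGGCGG, 30.1% CCAAT, 14.0% CCGGAAG and 8.83% TATAAA. Over all 35116 windows of the table the shares were 45.0%, 34.6%, 10.3% and 11.5%, and the median number of CG dinucleotides was 14, against 22 for the antisense RNAs and 24 for their sense genes. A match to letters is a description of the window and not a bound site.

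BCLAF1 itself checked the hairpin label only, since the level of its own RNA in the RIP does not check the RIP label. It had 11479, 11076 and 11225 counts in shCONTROL, 4389, 4714 and 3664 in shBCLAF1 and 29157, 29944 and 29778 in the RIP. Its log2 fold change was -1.50 after knock-down and 1.74 in the RIP. Totals ran from 25819144 to 36635268 estimated counts per library, so the floor of 3 counts was 0.0819 to 0.116 CPM, counts scaled to a common library total. Of 13 markers expected in these cells 12 were above 0 in every library and CD14 was at 0. Of 11 markers of other cell types 9 were at 0 throughout, and CD3D and KRT18 were not. The summed count of those 11 lay between 421 and 459 in shCONTROL, 362 and 497 in shBCLAF1, and 250 and 411 in the RIP. The summed count of the 13 expected markers lay between 80642 and 88253 in shCONTROL, 150948 and 173450 in shBCLAF1, and 54972 and 68085 in the RIP. Most of that difference was LYZ, the lysozyme gene, at 27717, 22659 and 26270 counts in shCONTROL, 107186, 100773 and 89206 in shBCLAF1 and 1161, 969 and 1739 in the RIP. Without it the sums lay between 57983 and 61983, 61742 and 66264, and 53811 and 66346. The part of either list in the results was not tested. In such bulk samples fewer cells of a type and less RNA per cell cannot be told apart.

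Together the 434 RNAs took between 0.384% and 0.405% of the counts in shCONTROL, between 0.386% and 0.408% in shBCLAF1, and between 0.281% and 0.339% in the RIP. Mean counts per RNA ran from 20.6 to 10803 with a median of 114. In all, 235 RNAs had a mean of at least 100 and 16 a mean of at least 1000. The 6 with the most counts were OIP5-AS1, RPL30-AS1, MIF-AS1, FGD5-AS1, PSMA3-AS1 and OTUD6B-AS1. Zeros were uneven between groups. In shCONTROL 18 RNAs were at 0 in at least 1 library, in shBCLAF1 20 and in the RIP 73. A 0 could stand beside 20 or more counts in another library of the group, which happened for 14, 14 and 43 RNAs, so a listed 0 is no proof that an RNA is absent.

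Setting shBCLAF1 against shCONTROL addresses which RNAs change once BCLAF1 is knocked down. Of 431 antisense RNAs tested, 47 were higher and 47 lower in shBCLAF1 than in shCONTROL (edgeR quasi-likelihood test, p adjusted by Benjamini-Hochberg over all genes and under 0.05). That is 10.9% in each direction, against 15.5% of all 16961 genes higher and 16.9% lower. The median log2 fold change was 0.06, against 0.02 for all genes. Counts matter here. Among RNAs with means of 20 to 100 counts 7.14% were higher and 4.59% lower, against 6.24% and 5.35% of all genes in that range, and between 100 and 1000 counts 13.7% and 16.0%, against 15.8% and 15.9%. From 1000 counts up 3 of 16 were higher and 3 lower, against 22.1% and 26.5%. In the 2 lower ranges the shares were thus near those of all genes. On the log2 scale the median size of the changes that passed was 0.67, and 20 reached 1. Each of the 94 called RNAs had groups that did not overlap, as did 181 of all 431 tested. The share over all genes was not counted, so these counts do not set antisense RNAs apart. SYT9-AS1, JDP2-AS1 and FLVCR2-AS1 were not tested because few of these 6 libraries held counts.

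**Figure D1:**
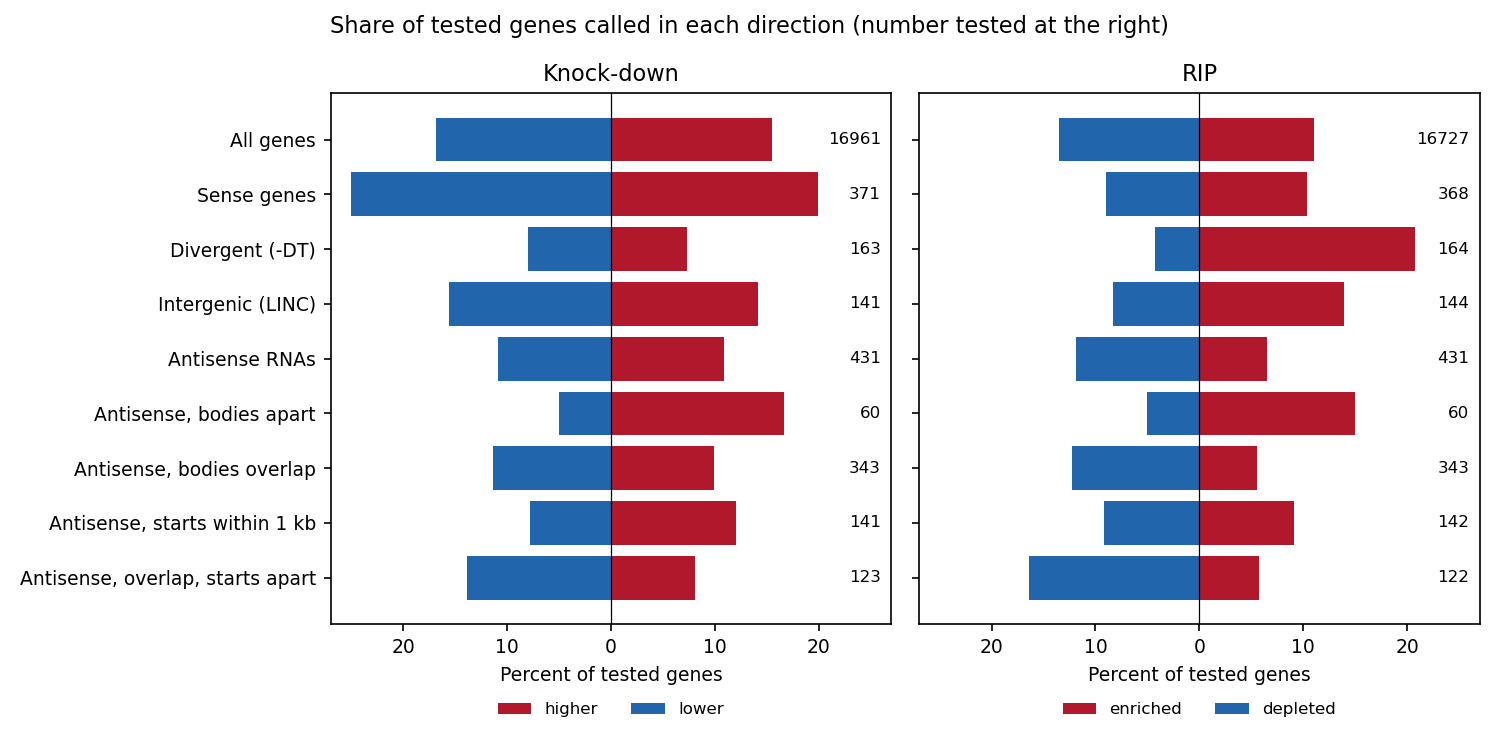
Percent of tested genes called higher or lower after knock-down (left) and enriched or depleted in the RIP (right), for all genes, the sense genes, 2 other noncoding classes and the antisense RNAs with 4 of their arrangements; the number tested stands at the right of each bar. The antisense bars are shorter than those of all genes after knock-down (10.9% each way against 15.5% and 16.9%). In the RIP the depleted side is the longer one (11.8% against 6.50%), as it is for all genes (13.5% against 11.0%).

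Among the best-counted RNAs the changes were small. OIP5-AS1, also known as cyrano, had 15090, 14649 and 14670 counts in shCONTROL and 13739, 12641 and 13704 in shBCLAF1. The groups did not overlap, and it fell by 0.24 on the log2 scale (SE 0.05, adjusted p 0.0139), a call lost without shCONTROL replicate 1 (0.0602) or 2 (0.0565) and when all 9 libraries were fitted together (0.604). FGD5-AS1 rose from 2686, 2467 and 2387 to 3777, 3374 and 3472 counts, a log2 rise of 0.40 (SE 0.07, adjusted p 0.00579). OTUD6B-AS1 was called with a log2 fold change of 0.13 (adjusted p 0.0446), lost without any 1 library except shBCLAF1 replicate 3 (0.0753 to 0.136) in a fit of all 9 libraries (0.322), with RLE size factors (0.0514), with no filter on low counts (0.0567) and with the replicate block (0.0747). RPL30-AS1, with a log2 fold change of -0.56 (adjusted p 0.0859), MIF-AS1 (0.09, 0.198) and PSMA3-AS1 (-0.12, 0.275) were not called, although RPL30-AS1 passed without shBCLAF1 replicate 1 (-0.76, 0.0344).

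RNAs beside DNA-binding transcription factor genes numbered 30, of which 29 were tested. After knock-down 3 were higher (ELF3-AS1, BACH1-AS1, ZFPM2-AS1) and 5 lower (MEF2C-AS1, MEF2C-AS2, MEIS1-AS2, SATB1-AS1, MSC-AS1), with a group median of -0.08. That is 10.3% and 17.2%, against 15.5% and 16.9% of all genes, and no test sets this or any later group apart. MEF2C encodes a MADS-box factor of myeloid progenitors and leukaemia. MEF2C-AS1 had 295, 289 and 364 counts in shCONTROL and 166, 132 and 162 in shBCLAF1. It fell by 1.13 on the log2 scale (SE 0.14, adjusted p 0.00204). MEF2C fell with it, by 0.65, from 12996 to 13465 counts in the controls to 8076 to 9754, and the ratio of the pair was not called changed (-0.40, SE 0.17, adjusted p 0.123 by limma). MEIS1-AS2, which overlaps the gene of the HOX cofactor MEIS1, had 314, 264 and 343 counts in shCONTROL and 134, 167 and 169 in shBCLAF1. It fell by 1.05 (SE 0.14, adjusted p 0.00285), and MEIS1 fell by 0.86.

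HOXA-AS2, which runs between genes of the HOXA cluster, went from 68, 100 and 98 counts to 32, 22 and 28, and fell by 1.72 (SE 0.24, adjusted p 0.0029). It was chosen after its values were seen, since its mean lay under the 50 counts asked of named RNAs. HOXA-AS3 had 166, 152 and 207 counts against 137, 70 and 0, and it was not called (log2 fold change -1.42, SE 1.13, adjusted p 0.401). BACH1-AS1, beside the haem-sensing repressor BACH1, rose from 24, 53 and 45 to 108, 89 and 128 counts, a log2 rise of 1.27 (SE 0.32, adjusted p 0.0272). That call was lost without shBCLAF1 replicate 1 (0.0679), shBCLAF1 replicate 3 (0.0781) or shCONTROL replicate 3 (0.0729), with all 9 libraries in 1 fit (0.397) and with the replicate block (0.0577).

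RNAs beside genes of leukocyte surface proteins, signalling and cytokines numbered 35. Of these 3 were higher (ITGB2-AS1, IKBKE-AS1, CD27-AS1) and 7 lower (SH3BP5-AS1, ICAM4-AS1, TNFRSF10A-AS1, ITGA6-AS1, MMP25-AS1, PXN-AS1, PSMB8-AS1), with a group median of -0.04. That is 8.57% and 20%, against 15.5% and 16.9% of all genes. ITGB2 encodes CD18, the beta chain of the leukocyte integrins. ITGB2-AS1 had 80, 77 and 92 counts in shCONTROL and 278, 284 and 301 in shBCLAF1, the highest log2 fold change among RNAs above 0 in all 6 libraries with a mean of at least 50 (1.68, SE 0.11, adjusted p 2.87e-04). ITGB2 rose by 0.36, and the ratio of antisense to sense rose by 1.16 (SE 0.13, adjusted p 0.00122 by limma).

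ICAM4-AS1, opposite a blood group adhesion gene that was itself listed at 0, had 179, 166 and 316 counts against 105, 75 and 115, and fell by 1.23 (SE 0.29, adjusted p 0.0211). TNFRSF10A-AS1, beside the gene of a TRAIL receptor, had 142, 112 and 110 against 83, 71 and 53, and fell by 0.89 (SE 0.20, adjusted p 0.0169). ICAM4-AS1 was no longer called without shBCLAF1 replicate 1 (0.0596) or 2 (0.0651), and TNFRSF10A-AS1 without shBCLAF1 replicate 2 (0.0526) or shCONTROL replicate 1 (0.0567) or with all 9 libraries in 1 fit (0.0544).

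Of 42 RNAs beside chromatin and transcription genes 7 were higher (SPEN-AS1, ASH1L-AS1, BAZ1A-AS1, ATXN7L3-AS1, BAZ2B-AS1, SAP30L-AS1, HDAC2-AS2) and 1 lower (KANSL1L-AS1), with a median of 0.18. That is 16.7% and 2.38%, against 15.5% and 16.9% of all genes. ATXN7L3, a subunit of the SAGA deubiquitinase module, has 2 rows named ATXN7L3-AS1. The row ENSG00000260793 had 56, 55 and 53 counts in shCONTROL and 135, 158 and 204 in shBCLAF1, a log2 rise of 1.47 (SE 0.19, adjusted p 0.0024). The row ENSG00000267394 had 44, 41 and 45 against 60, 60 and 64, and was not called (0.39, SE 0.14, adjusted p 0.0863). How reads were shared between them is not given in the sources used here.

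The other gene groups held the remaining calls, to be read beside the 15.5% higher and 16.9% lower of all genes. Of 39 RNAs beside genes of RNA processing and translation 2 were lower (RTCA-AS1 and WARS2-AS1) and 0 higher by the edgeR test. At an unadjusted p under 0.05 1 was higher, and DESeq2 called 1. Of 21 beside cell cycle and repair genes PRC1-AS1 and BIRC6-AS1 were higher and OIP5-AS1 and CDK6-AS1 lower. Of 12 beside ubiquitin and proteasome genes OTUD6B-AS1 was higher and USP2-AS1 lower. The remaining 246 held 30 higher and 27 lower, and of the 9 with no sense gene TRG-AS1 was higher and FOXD2-AS1 and HOXA-AS2 lower.

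Some of the largest falls stood beside genes of other functions. BCAN encodes brevican, a matrix protein known from the brain. BCAN-AS2 had 198, 224 and 191 counts in shCONTROL and 60, 60 and 77 in shBCLAF1, and fell by 1.70 (SE 0.17, adjusted p 9.38e-04). BCAN-AS1 had 115, 142 and 110 counts in shCONTROL and 0 in each shBCLAF1 library, at least 42.2-fold lower against the floor of 3 counts per library. It could pass the filter on low counts only through shCONTROL, so the direction of its call was set by that selection. The bound takes each listed 0 at its word. BCAN itself was listed at 0 in 8 libraries and at 220 in shBCLAF1 replicate 3.

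IQCH-AS1 had 279, 317 and 283 counts in shCONTROL and 155, 140 and 140 in shBCLAF1, and fell by 1.10 (SE 0.11, adjusted p 0.00108). TRHDE-AS1, opposite a peptidase that degrades thyrotropin-releasing hormone, went from 752, 747 and 794 to 396, 382 and 413, and fell by 1.04 (SE 0.07, adjusted p 3.20e-04). LYRM4-AS1, opposite a factor of iron-sulfur cluster assembly, went from 330, 316 and 414 to 229, 181 and 141, and fell by 1.03 (SE 0.19, adjusted p 0.00846). TRHDE-AS1 was not called when all 9 libraries were fitted together (0.201). DLGAP1-AS2 had 33, 84 and 76 counts in shCONTROL and 0 in each shBCLAF1 library, at least 22.2-fold lower, with the same limits as BCAN-AS1. ZBED3-AS1, named after its values were seen, had 146, 189 and 98 counts against 0, 17 and 0 and fell by 4.35 (SE 1.11, adjusted p 0.0276).

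Rises of similar size were found elsewhere. CA3-AS1 had 33, 44 and 32 counts in shCONTROL and 126, 114 and 128 in shBCLAF1, a log2 rise of 1.60 (SE 0.19, adjusted p 0.00169). SCUBE1-AS1 had 56, 36 and 49 against 114, 132 and 112 (1.22, SE 0.18, adjusted p 0.00396). ZNF503-AS2, with 32, 34 and 61 against 73, 109 and 104, gave 1.05 (SE 0.30, adjusted p 0.0392). The call of ZNF503-AS2 was lost without shBCLAF1 replicate 2 (0.115) or 3 (0.102) or shCONTROL replicate 1 (0.111) or 2 (0.116). When all 9 libraries were fitted together, neither ZNF503-AS2 (0.542) nor CA3-AS1 (0.309) was called. CA3, a carbonic anhydrase gene, was listed at 0 in every library.

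ATXN1-AS1 went from 52, 64 and 51 counts to 130, 151 and 95, a log2 rise of 1.04 (SE 0.21, adjusted p 0.0125). AP4B1-AS1, opposite a subunit of a vesicle adaptor complex, went from 72, 88 and 73 to 172, 174 and 137 (0.93, SE 0.16, adjusted p 0.00666), and AP4B1 rose by 0.85. Neither was called when all 9 libraries were fitted together (0.114 and 0.146). PTOV1-AS2 went from 74, 88 and 98 to 149, 147 and 192 (0.80, SE 0.18, adjusted p 0.0174) and was lost without shCONTROL replicate 1 (0.0531).

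**Figure D2:**
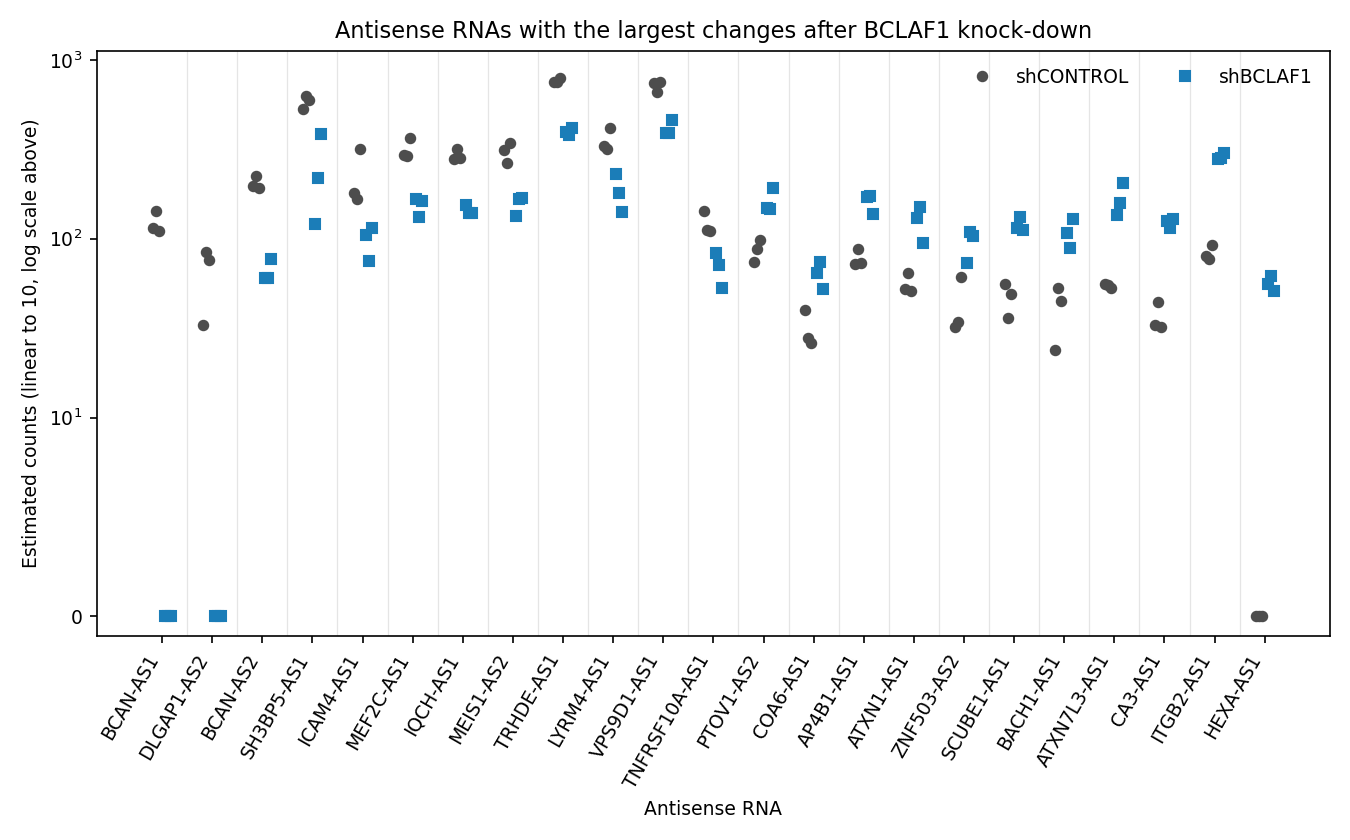
Estimated counts in each shCONTROL (circles) and shBCLAF1 (squares) library for the named antisense RNAs that passed after knock-down, ordered by log2 fold change; the axis is linear to 10 and logarithmic above. In every RNA shown the 3 libraries of 1 group lie above the 3 of the other, from BCAN-AS1 at 0 in shBCLAF1 to HEXA-AS1 at 0 in shCONTROL. The naming rule asked this of all those not at 0 in 1 group.

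The next question was how each antisense RNA moved beside its sense gene. Both were tested for 376 pairs after knock-down, and the log2 fold changes had the same sign in 233. Where the antisense RNA was higher, the sense gene was higher in 21 pairs, lower in 6 and not called in 13, and where it was lower, the sense gene was lower in 19, higher in 3 and not called in 15. Of the sense genes as a whole 19.9% were higher and 25.1% lower. Across the pairs Spearman's correlation was 0.39. It was 0.42 over 305 pairs with overlapping bodies and 0.24 over 54 with bodies apart. These values describe pairs measured in the same 6 libraries. The kit keeps the strand, but whether the counting used it is not given in the sources used here. Without that, reads of a gene and of its overlapping antisense RNA cannot be told apart.

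**Figure D3:**
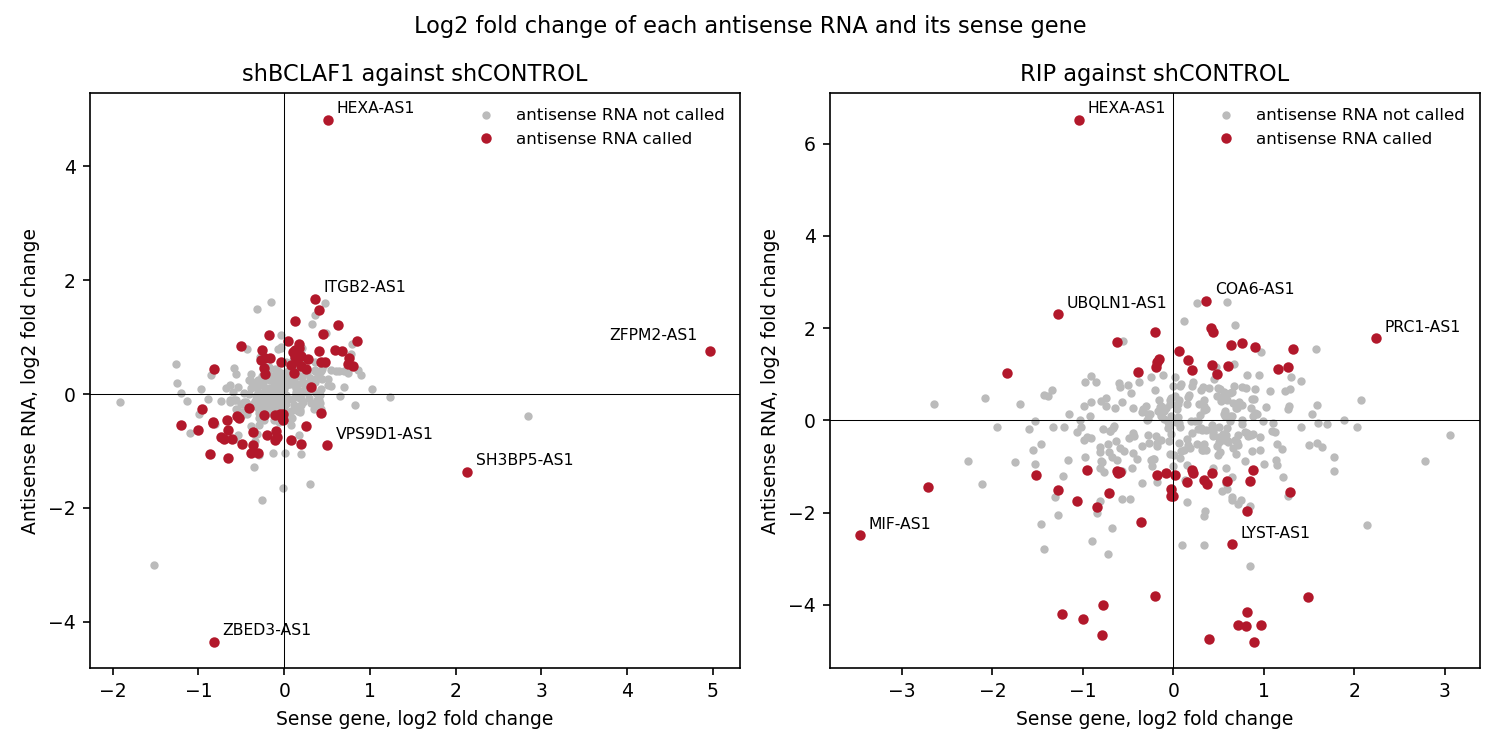
Log2 fold change of each antisense RNA (vertical) against that of its sense gene (horizontal) for 376 pairs after knock-down (left) and 373 in the RIP (right); red points are antisense RNAs that passed the test of that comparison, grey points those that did not. Red points lie mostly in the upper right and lower left after knock-down and are spread over the whole panel in the RIP; values beyond 4 in size come from groups at or near 0 and are no measured fold.

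The 3 RNAs that were lower with a higher sense gene were SH3BP5-AS1, VPS9D1-AS1 and KHDC1-AS1. SH3BP5, a BTK-binding adaptor, had 164, 166 and 181 counts in shCONTROL and 813, 812 and 794 in shBCLAF1, a log2 fold change of 2.14. SH3BP5-AS1 had 532, 629 and 599 against 121, 218 and 384. The log2 ratio of antisense to sense went from 1.68 ± 0.12 to -1.80 ± 0.78 (SD, n = 3 each), a difference of -3.48 (SE 0.38, adjusted p 0.00117 by limma; exact two-sided permutation p 0.1, the smallest that 3 against 3 allows). The summed counts of the pair were 696, 795 and 780 in shCONTROL, 934, 1030 and 1178 in shBCLAF1 and 968, 1117 and 811 in the RIP. Within the RIP the library with the fewest SH3BP5-AS1 counts (152) had the most of SH3BP5 (965). The part of read assignment between these overlapping genes was not tested. The fall of SH3BP5-AS1 alone, by 1.36 (SE 0.41, adjusted p 0.0467), was lost without shBCLAF1 replicate 2 (0.136) or any 1 shCONTROL library (0.0996 to 0.129), with all 9 libraries in 1 fit (0.159), with total counts as the scale (0.0575) and with no filter on low counts (0.0596).

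VPS9D1-AS1 had 746, 663 and 755 counts in shCONTROL and 390, 388 and 461 in shBCLAF1, and fell by 0.89 (SE 0.10, adjusted p 0.00152). VPS9D1, which has a VPS9 domain as found in Rab exchange factors, had 292, 297 and 285 against 443, 455 and 427, a log2 fold change of 0.50. The log2 ratio went from 1.26 ± 0.12 to -0.10 ± 0.18 (SD, n = 3 each), a difference of -1.35 (SE 0.13, adjusted p 7.72e-04). The replicates of each gene were close together and the groups apart. Within each group the library with the most VPS9D1-AS1 counts (755 and 461) had the fewest of VPS9D1 (285 and 427). The part of read assignment was not tested for this pair either. KHDC1-AS1 fell by 0.34 (adjusted p 0.0163), KHDC1 rose by 0.42 and the ratio fell by 0.72 (SE 0.12, adjusted p 0.00649). The call of KHDC1-AS1 was lost without shBCLAF1 replicate 2 (0.0553) or shCONTROL replicate 1 (0.0557) and with all 9 libraries in 1 fit (0.0966).

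The 6 RNAs that were higher with a lower sense gene were SCAMP1-AS1, TP73-AS3, HDAC2-AS2, BAZ1A-AS1, OXCT1-AS1 and PRDX6-AS1. SCAMP1, a membrane protein of secretory vesicles, had 2726, 2452 and 2543 counts in shCONTROL and 1698, 1659 and 1314 in shBCLAF1, and fell by 0.82. SCAMP1-AS1, which starts 76 bases from a SCAMP1 start and does not overlap its body, had 372, 383 and 373 against 564, 533 and 541, a log2 rise of 0.44 (SE 0.07, adjusted p 0.00611), not called in the fit that takes all 9 libraries together (0.11). The ratio rose by 1.25 (SE 0.12, adjusted p 8.63e-04). TP73-AS3 went from 15, 18 and 20 to 38, 30 and 38 counts and its ratio to TP73 rose by 1.02 (SE 0.18, adjusted p 0.00643). Its own rise of 0.84 (adjusted p 0.0353) was lost without any 1 library, with DESeq2 (0.0679), with all 9 libraries in 1 fit (0.093) and with the replicate block (0.097).

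In all 33 of the 376 ratios rose and 20 fell, which is 14.1%. Over all 7422 pairs tested, which are the antisense and sense pairs together with neighbours on opposite strands, 35.5% changed. The sets were not matched for counts. Of the 53 changed ratios 20 came with a called sense gene and an antisense RNA that was not called. MIF, the macrophage migration inhibitory factor, was such a case. MIF had 6867, 5980 and 6675 counts in shCONTROL and 3825, 3396 and 3408 in shBCLAF1, and fell by 0.97, whereas MIF-AS1 had 6314, 5656 and 6734 against 7321, 7162 and 6839. The groups of MIF-AS1 overlapped after TMM scaling but not when scaled by total counts, and the ratio rose by 1.06 (SE 0.06, adjusted p 1.40e-04).

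PSMA3, a core proteasome subunit, fell by 1.13 beside an uncalled PSMA3-AS1, and their ratio rose by 1.01 (SE 0.11, adjusted p 0.00138). TSPOAP1, a protein that binds the mitochondrial TSPO, rose by 1.02 beside TSPOAP1-AS1, whose log2 fold change was 0.09, and that ratio fell by 0.92 (SE 0.12, adjusted p 0.0026). ZNF566-AS1 starts 66 bases from a start of the zinc finger gene ZNF566, which fell by 1.26, and that ratio rose by 1.61 (SE 0.30, adjusted p 0.00896). The ratios of VIM-AS1 (1.02, adjusted p 0.0446), ZNF516-AS1 (-0.81, 0.0285) and LMO7-AS1 (-0.73, 0.0293) were called as well, but each was lost when single libraries were left out, LMO7-AS1 for each of the 6 libraries, VIM-AS1 for each except shBCLAF1 replicate 2 and ZNF516-AS1 without shBCLAF1 replicate 1 or 2 or shCONTROL replicate 2 or 3. With all 9 libraries in 1 fit the ratios of VIM-AS1 (0.182) and ZNF516-AS1 (0.0859) were not called, nor were those of VIM-AS1 (0.0675) and LMO7-AS1 (0.0504) with the replicate block.

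**Figure D4:**
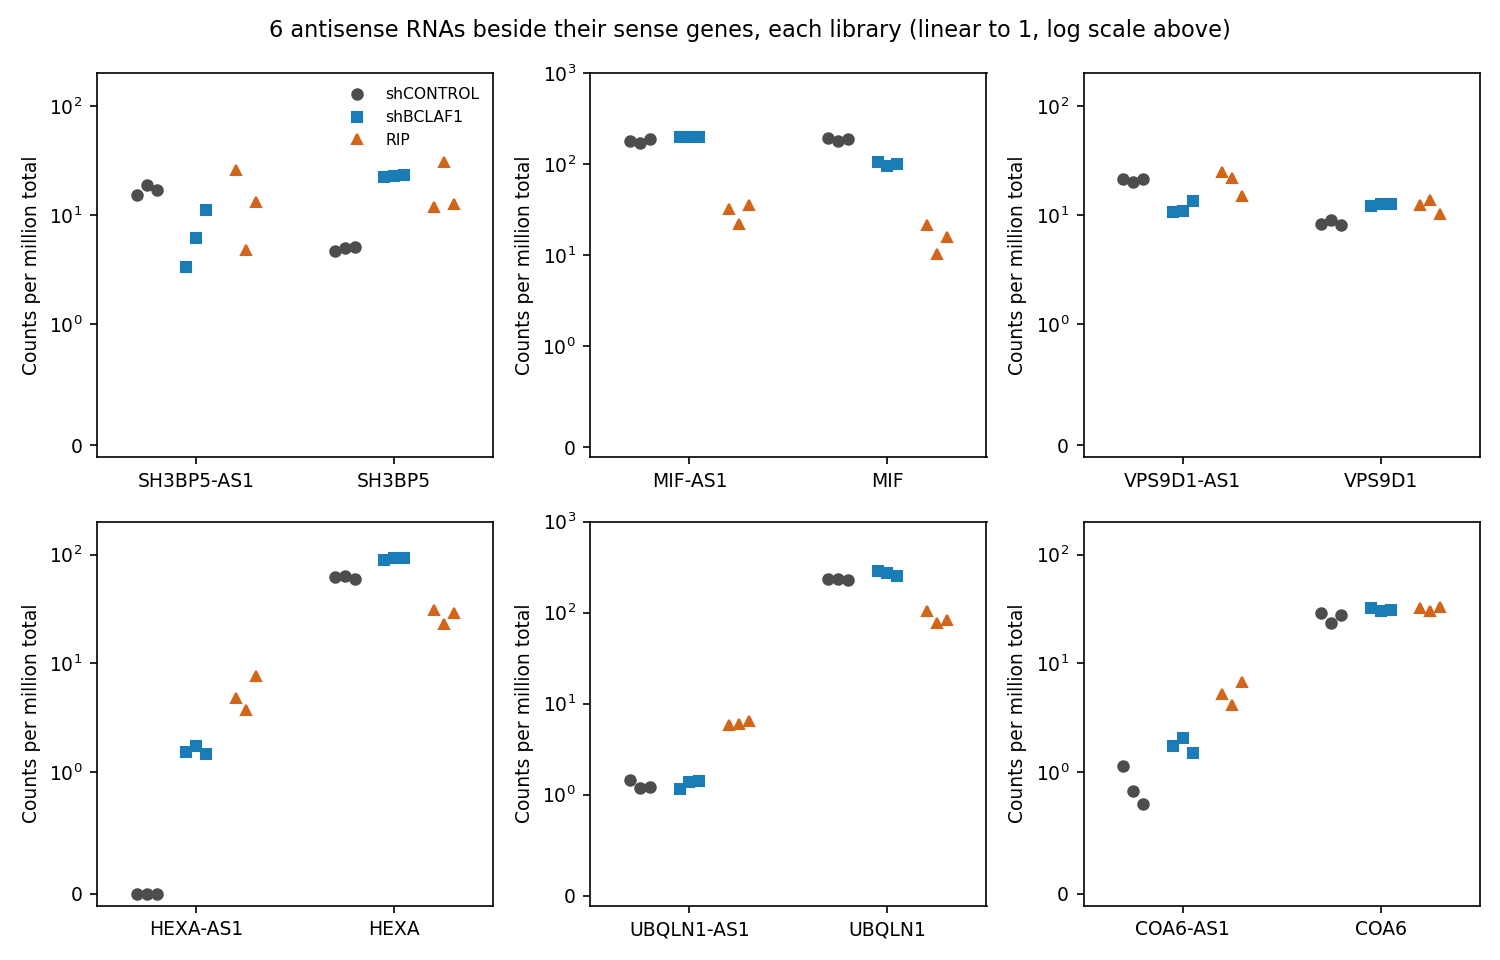
CPM, here over total counts, in each shCONTROL, shBCLAF1 and RIP library for 6 antisense RNAs and their sense genes; the axis is linear to 1 and logarithmic above, and levels are to be compared between groups of 1 gene, not between genes. SH3BP5-AS1 and SH3BP5 move in opposite directions after knock-down, MIF is lower while MIF-AS1 was not called, and HEXA-AS1 at 0 in shCONTROL, UBQLN1-AS1 and COA6-AS1 are highest in the RIP.

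Setting the RIP against shCONTROL addresses which RNAs come down with BCLAF1 in excess of their level in total RNA. Of 431 antisense RNAs tested, 28 were enriched and 51 depleted (edgeR quasi-likelihood test, adjusted p under 0.05, size of the log2 fold change 1 or more). That is 6.50% and 11.8%, against 11.0% and 13.5% of all 16727 genes. At any size 57 of the 431 passed above the control and 81 below, against 4107 and 4124 of all 16727 genes. A gene not called in the RIP may thus still pass the test at a smaller size. The median log2 fold change was -0.20, against -0.05 for all genes and 0.16 for the sense genes, and with total counts as the scale in place of TMM the median of all genes moved by -0.11. With means of 20 to 100 counts 5.10% of the RNAs were enriched and 10.7% depleted, against 9.64% and 10.7% of all genes. Between 100 and 1000 counts the shares were 7.76% and 12.3%, against 9.73% and 14.7%. In these ranges the depleted shares were thus near or under those of all genes. The medians were -0.33 against -0.28 in the lower range and -0.12 against -0.09 in the higher. Groups did not overlap for 245 of the 431, a count with no share over all genes to set beside it. CFLAR-AS1, with 10, 68 and 62 counts in shCONTROL and 0 in each RIP library, was not tested, nor were SYT9-AS1 and FLVCR2-AS1.

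Other noncoding classes gave different values in the same fit. Of 164 divergent transcripts, which share a promoter region with a coding gene and carry -DT in their symbol, 34 were enriched and 7 depleted, with a median of 0.42. Of 144 intergenic RNAs with LINC symbols 20 were enriched and 12 depleted, with a median of 0.17. Among the antisense RNAs themselves the calls are listed by arrangement, beside 11.0% enriched and 13.5% depleted of all genes. Of 60 whose body lay apart from the sense gene 9 were enriched and 3 depleted (median 0.18), and of 343 that overlapped it 19 and 42 (median -0.22). Where the starts lay within 1 kb, 13 of 142 were enriched and 13 depleted (median -0.05). Where overlapping genes had starts further apart, 7 of 122 were enriched and 20 depleted (median -0.34). The shares were 15% and 5% for bodies apart and 5.54% and 12.2% for overlap. They were 9.15% and 9.15% for starts within 1 kb, and 5.74% and 16.4% for overlap with starts further apart. No test of these differences was run, so they set no arrangement apart. The windows of enriched RNAs held a median of 30 CG dinucleotides against 20 in those of depleted RNAs, which was not tested either.

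Among RNAs above 0 in these 6 libraries and with a mean of at least 50 the most enriched was COA6-AS1, opposite a gene for an assembly factor of mitochondrial complex IV. It had 40, 28 and 26 counts in shCONTROL and 135, 130 and 214 in the RIP, a log2 enrichment of 2.60 (SE 0.29, adjusted p 9.57e-04). COA6 had 1020, 775 and 988 against 829, 953 and 1048, after scaling above its control but under the minimum size (0.36, adjusted p 0.0471). The ratio rose by 1.79 (SE 0.25, adjusted p 0.00142). UBQLN1-AS1 had 51, 39 and 43 against 151, 187 and 203 (2.30, SE 0.19, adjusted p 4.10e-04). UBQLN1, a ubiquilin that carries ubiquitylated proteins to the proteasome, was depleted, with 8123, 7694 and 8032 against 2696, 2453 and 2590 (-1.28). The log2 ratio of this pair rose by 3.27 (SE 0.23, adjusted p 1.34e-04), the largest rise among pairs above 0 in all 6 libraries. BRWD1-AS2, beside a bromodomain gene, had 29, 35 and 36 against 95, 83 and 157 (2.00, SE 0.29, adjusted p 0.00239).

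TMEM44-AS1 had 237, 204 and 243 counts in shCONTROL and 560, 627 and 879 in the RIP (1.92, SE 0.17, adjusted p 4.74e-04). VIM-AS1, beside the gene of the intermediate filament vimentin, had 224, 409 and 318 against 542, 657 and 1697 (1.91, SE 0.47, adjusted p 0.0165). RIP replicate 3 stood far above the others for VIM-AS1, and the call was lost without shCONTROL replicate 1 (0.0616) or 3 (0.0612). PRC1-AS1 had 380, 363 and 360 against 648, 1062 and 1346 (1.79, SE 0.23, adjusted p 0.00149), and PRC1, which bundles microtubules of the dividing cell, was enriched too (2.24).

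Of the 42 RNAs beside chromatin and transcription genes 5 were enriched (SPEN-AS1, ZMIZ1-AS1, BRWD1-AS2, H2BC6-AS1, KMT2E-AS1), which is 11.9% against the 11.0% of all genes, and 3 depleted (PRDM4-AS1, HEXIM2-AS1, JARID2-AS1). H2BC6-AS1 had 80, 48 and 71 counts in shCONTROL and 161, 165 and 192 in the RIP (1.69, SE 0.23, adjusted p 0.00178). KMT2E-AS1 had 74, 70 and 104 against 197, 168 and 276 (1.68, SE 0.25, adjusted p 0.0025). KMT2E is a SET-domain gene of the trithorax family, and it was not called itself (0.75). ATP2A1-AS1, opposite a calcium pump of muscle, had 35, 31 and 47 against 89, 73 and 126 (1.63, SE 0.29, adjusted p 0.00473). RALY-AS1, beside an hnRNP-related gene, had 129, 82 and 88 against 160, 246 and 322 (1.59, SE 0.29, adjusted p 0.00529). It was 1 of 3 enriched among the 39 beside RNA processing and translation genes, the others being PRPF31-AS1 and URB1-AS1, while STAU2-AS1 and RPL30-AS1 were depleted.

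Of the 30 RNAs beside transcription factor genes 7 were depleted (RUNX1-AS1, MEIS1-AS2, MEF2C-AS2, SATB1-AS1, ELF3-AS1, PITX1-AS1, FOXP4-AS1) and 2 enriched (SREBF2-AS1, TFAP2A-AS2), with a group median of -0.58. That is 23.3% depleted, against 13.5% of all genes and 11.8% of all antisense RNAs, and no test sets the group apart. RUNX1-AS1 overlaps RUNX1, a master regulator of blood formation. It had 867, 941 and 927 counts in shCONTROL and 221, 127 and 108 in the RIP (-2.21, SE 0.33, adjusted p 0.00251), whereas RUNX1 was not called (-0.36). The ratio of this pair fell by 1.78 (SE 0.28, adjusted p 0.00215). MYB-AS1 had 270, 279 and 284 against 172, 59 and 39 and was not called (-1.22, adjusted p 0.131), except without RIP replicate 1 (-2.17, 0.00278). MYB was enriched (1.21), and their ratio fell by 2.58 (SE 0.52, adjusted p 0.00598).

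Of the 35 beside leukocyte and signalling genes 0 were enriched and 5 depleted (LYST-AS1, DOCK8-AS2, MIF-AS1, IKBKE-AS1, TNFRSF10A-AS1) by the edgeR test, 14.3% depleted against 13.5% of all genes, with 5 above and 7 below the control at any size. None of the 35 passed the minimum size upward at an unadjusted p under 0.05 either, and DESeq2 also gave 0. LYST-AS1, beside the gene of a regulator of lysosomal traffic, had 213, 259 and 243 counts in shCONTROL and 32, 39 and 12 in the RIP (-2.67, SE 0.45, adjusted p 0.00395). The long LYST transcript lay above its control but under the minimum size (0.65, SE 0.11, adjusted p 0.00434), and the ratio fell by 2.98 (SE 0.34, adjusted p 6.67e-04). DOCK8-AS2, opposite a guanine nucleotide exchange factor of immune cells, had 288, 308 and 261 against 84, 54 and 27 (-1.97, SE 0.44, adjusted p 0.0116), and its ratio to DOCK8 fell by 2.68 (SE 0.39, adjusted p 0.00161).

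MIF-AS1 had 6314, 5656 and 6734 counts in shCONTROL and 824, 695 and 1119 in the RIP (-2.48, SE 0.18, adjusted p 2.96e-04). MIF fell further below its control, with 6867, 5980 and 6675 against 559, 323 and 496 (-3.47), so the ratio rose by 0.99 (SE 0.18, adjusted p 0.00408). OIP5-AS1 had 4009, 6080 and 2645 counts in the RIP (-1.45, SE 0.30, adjusted p 0.00916) and RPL30-AS1 3386, 2529 and 3518 (-1.51, SE 0.16, adjusted p 8.31e-04). These 3 were the best counted of the antisense RNAs, and all were depleted. The wider range of 1000 counts and more held 16 RNAs, of which 3 were depleted (18.8%) and 1 enriched (6.25%). Of all genes in that range 13.6% were depleted and 12.9% enriched. The median of the 16 was 0.07, against 0.10 for those genes. FGD5-AS1, with 1872, 2216 and 1840 counts in the RIP, was not called (adjusted p 0.98), and PSMA3-AS1 lay above its control but under the minimum size (0.48, SE 0.10, adjusted p 0.00863).

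The naming rule gave further depleted RNAs, for which groups apart were a condition and not a result. LYRM4-AS1 had 81, 72 and 70 counts in the RIP (-1.87, SE 0.18, adjusted p 6.27e-04) and KHDC1-AS1 213, 319 and 303 (-1.64, SE 0.15, adjusted p 5.23e-04). ASB16-AS1 had 368, 344 and 480 counts in shCONTROL and 118, 93 and 60 in the RIP (-1.75, SE 0.31, adjusted p 0.00496), and ASB16 was depleted with it (-1.07). TNS2-AS1 (-1.65), ZNF451-AS1 (-1.63) and ELFN1-AS1 (-1.57) followed, with adjusted p of 0.0102, 0.00845 and 6.48e-04.

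**Figure D5:**
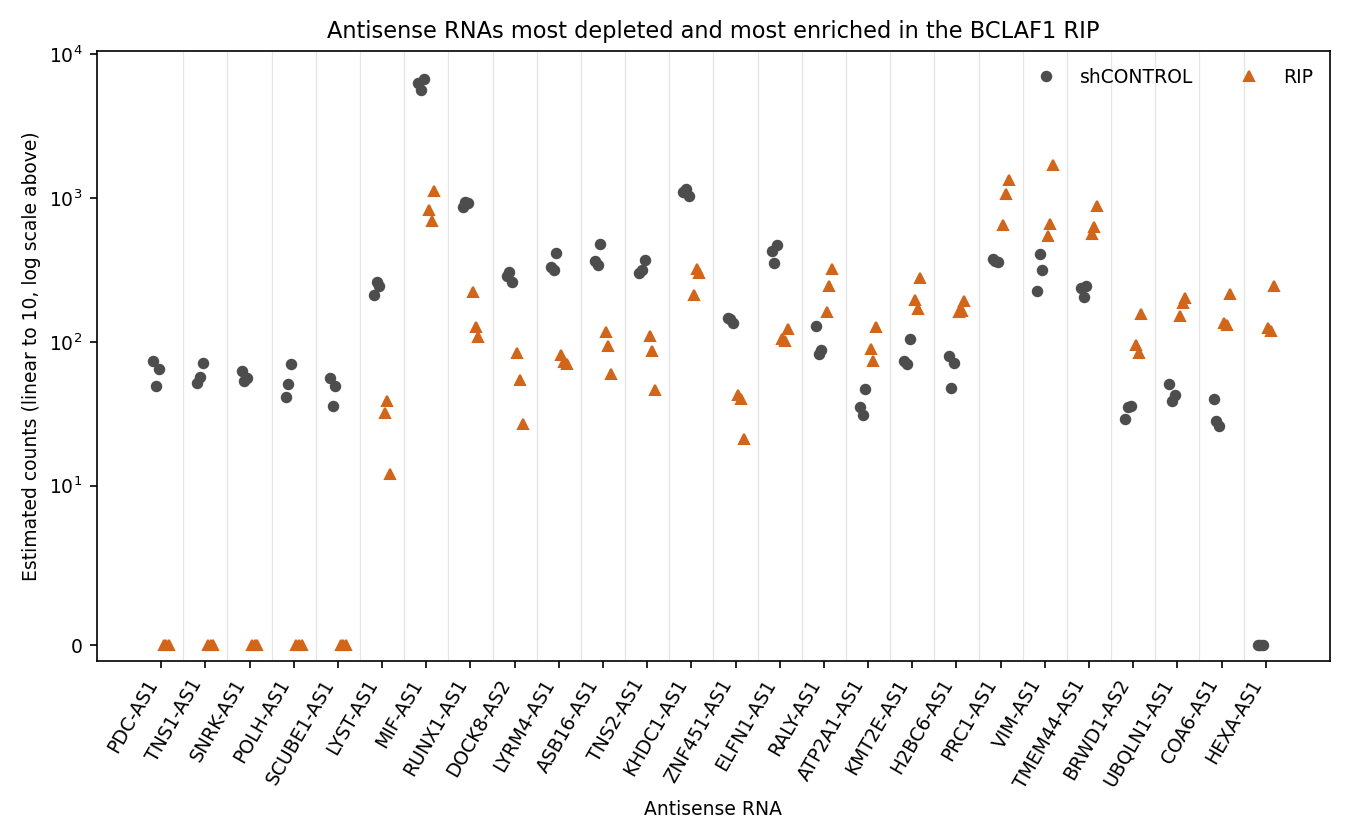
Estimated counts in each shCONTROL (circles) and RIP (triangles) library for the named antisense RNAs that were called in the RIP, ordered by log2 fold change; the axis is linear to 10 and logarithmic above. The 5 RNAs at the left are at 0 in all RIP libraries, and HEXA-AS1 at the right is at 0 in all shCONTROL libraries. In none of those shown do the groups overlap after scaling, which the naming rule asked of all the others.

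In the RIP 15 RNAs were at or under 3 counts in all 3 libraries, and 14 of them were tested. All 14 were called depleted, but the selection left room for little else. An RNA with so few RIP counts passes the filter on low counts only through its shCONTROL libraries. The share of these RNAs called depleted is thus not evidence of depletion. Against the floor of 3 counts per library PDC-AS1 was at least 17.7-fold lower, TNS1-AS1 at least 17.0-fold, SNRK-AS1 at least 16.3-fold, POLH-AS1 at least 15.3-fold and SCUBE1-AS1 at least 13.3-fold. Their counts in shCONTROL were modest, from 49 to 74 for PDC-AS1 and from 36 to 56 for SCUBE1-AS1. Only 3 RNAs were as low in all shCONTROL libraries and 3 in all shBCLAF1 libraries. With RNAs at 0 in any of the 9 libraries left out, 27 were enriched and 36 depleted.

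Both partners were tested in the RIP for 373 pairs. Of these 194 had the same sign, and Spearman's correlation across pairs was 0.11. Of the 28 enriched RNAs 3 had an enriched sense gene (PRC1-AS1, PRPF31-AS1, CATIP-AS1) and 3 a depleted one (UBQLN1-AS1, PRDX6-AS1, HEXA-AS1). Of the 51 depleted 5 had a depleted sense gene (MIF-AS1, RPL30-AS1, ASB16-AS1, NDUFV2-AS1, NAPA-AS1) and 2 an enriched one (JARID2-AS1, PITPNM2-AS1). The ratio rose in 60 pairs and fell in 108, together 45.0%. Of all 7404 pairs tested, the antisense and sense pairs included, 54.3% changed.

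The largest rises after UBQLN1-AS1 came mostly with a depleted sense gene. SLC25A5, a mitochondrial ADP/ATP carrier, had 12429, 10988 and 12619 counts in shCONTROL and 1385, 1221 and 1941 in the RIP (-2.65). SLC25A5-AS1 had 77, 87 and 121 against 115, 79 and 94 and was not called, and the ratio rose by 2.97 (SE 0.28, adjusted p 3.29e-04). PRDX6-AS1, with 143, 121 and 129 against 212, 211 and 213, rose in ratio by 2.80 to the peroxiredoxin gene PRDX6 (SE 0.23, adjusted p 2.02e-04), MPDU1-AS1 by 2.46 (SE 0.23, adjusted p 3.09e-04), and TMEM147-AS1 by 2.00 (SE 0.39, adjusted p 0.00547). Only H2BC6-AS1, with a rise of 2.11, stood beside a sense gene not called depleted (-0.63). The enrichment of PRDX6-AS1 itself (1.03) dropped under the minimum of 1 without RIP replicate 1 (0.98), shCONTROL replicate 2 (0.99) or shCONTROL replicate 3 (rounded, 1.00), and with total counts as the scale (0.92).

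Among the largest falls of the ratio, the sense gene was enriched for ZNF232-AS1, CTNS-AS1, MYB-AS1 and JARID2-AS1 and not called for LYST-AS1 and DOCK8-AS2. JARID2, a cofactor of the Polycomb complex PRC2, had 7411, 7567 and 7292 counts in shCONTROL and 12073, 20893 and 10055 in the RIP (1.29), and JARID2-AS1 103, 109 and 108 against 32, 39 and 11 (-1.55, SE 0.47, adjusted p 0.0365). The ratio fell by 2.53 (SE 0.25, adjusted p 3.85e-04). The depletion of JARID2-AS1 alone was lost without RIP replicate 1 (0.0568) or any 1 shCONTROL library (0.0887 to 0.0981), and with the replicate block (0.0622). ZNF232-AS1 fell in ratio by 3.39 (SE 0.30, adjusted p 2.84e-04), with ZNF232 at 89, 93 and 65 against 528, 389 and 449. CTNS-AS1 fell in ratio by 3.12 (SE 0.60, adjusted p 0.00526), but CTNS varied from 9 to 85 counts within shCONTROL.

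Some RNAs were called in both comparisons, which share the shCONTROL libraries, so their values stand side by side only as a description. HEXA-AS1 lies apart from HEXA, the alpha subunit gene of a lysosomal hexosaminidase. It had 0 counts in each shCONTROL library, 56, 62 and 51 in shBCLAF1 and 124, 119 and 243 in the RIP, at least 18.2-fold and at least 62.3-fold higher against the floor of 3 counts per library. Through shCONTROL it could not pass the filter on low counts, so the direction of both calls was set by that selection. Both bounds take each listed 0 at its word. HEXA rose by 0.51 after knock-down and was depleted in the RIP (-1.04). COA6-AS1 was also above the control in both, with 64, 74 and 52 counts in shBCLAF1 (0.88, SE 0.23, adjusted p 0.0318), a call lost without shBCLAF1 replicate 1 (0.0799) or 2 (0.106) or shCONTROL replicate 2 (0.0972) or 3 (0.0952), with all 9 libraries in 1 fit (0.062) and with the replicate block (0.0549).

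LYRM4-AS1, MEIS1-AS2 and TNFRSF10A-AS1 were below the control in both. For MEIS1-AS2 the RIP counts were 143, 85 and 95 (-1.14, SE 0.27, adjusted p 0.0147), a call lost without shCONTROL replicate 1 (0.0503) or 3 (0.0545) and under the minimum size without RIP replicate 2 (-0.98). For TNFRSF10A-AS1 they were 37, 55 and 32 (-1.18, SE 0.28, adjusted p 0.0151), lost without shCONTROL replicate 1 (0.062). SCUBE1-AS1 was higher in shBCLAF1 and at 0 in each RIP library, while SCUBE1 rose by 0.63 after knock-down and was not called in the RIP (0.81).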

How the data were processed

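RNA of MOLM-13 cells was sequenced in 9 libraries, 3 each of total RNA from shCONTROL and shBCLAF1 cells and 3 of RNA recovered in the RIP, made with a stranded kit that removes ribosomal RNA, per the labels' protocols. All samples carry 1 batch label. The authors deposited 1 table of estimated counts (expected counts) per gene, whole numbers with no normalization. STAR 2.7.11b, StringTie 2.2.3 and the build hg38 are named, per the submitters' processing notes, and the strand setting of the counting is not given in the sources used here. A row that names no gene, with 2.18% to 3.75% of the counts in 8 libraries, was left out.

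The members, the lists and the naming rule were chosen with earlier results of these data known. Each comparison was fitted on its own 6 libraries over all genes with edgeR 4.0.16 in R 4.3.3 (default filter, TMM, prior count of 2, quasi-likelihood F-test, Benjamini-Hochberg, 0.05; for the RIP also a minimum log2 size of 1). SE is the log2 fold change over the square root of F. The log2 ratio of antisense to sense CPM (0.5 added to each) was tested with limma 3.58.1 over all antisense and sense pairs and all neighbours on opposite strands. Named RNAs are the 6 with most counts, for each comparison the 10 highest and 10 lowest among those called, above 0 in all 6 libraries, with a mean of at least 50 and groups apart, the 5 largest bounds against a floor of 3 counts per direction, the 6 largest ratio changes per direction, and 6 called in both. A floor reflects counting error alone, because reads copied by PCR were not separated. Sense gene groups were written by hand. Positions and start windows are from RefSeq (GRCh38.p14), with a position for 415 RNAs and a window for 323. The tests were tried on simulated data. Alternatives were DESeq2 1.42.0, other scalings, filters and pseudocounts, a single fit of all 9 libraries, a replicate block and leaving out each library. A further marker gene of the lists is not reported here.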

Additional observations from a re-analysis of the deposited data

How the results depend on the processing

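Over 102 results of single RNAs or pairs and 1200 alternatives, 1096 kept their side of the threshold, 98 lost the call and 6 gained it. None of the called results changed direction, and FGD5-AS1 in the RIP, not called, ran from -0.12 to 0.08. The count of RNAs higher after knock-down, 47, was 11 in a single fit of all 9 libraries and 8 at a minimum log2 size of 1, and ran from 30 to 39 when single libraries were left out. The count lower, 47, was 22, 12 and from 30 to 43 in the same settings. Changed ratios after knock-down, 53, were 26 in the fit of all 9 libraries. Without a minimum size, 57 RNAs were above and 81 below the control in the RIP, against 4107 and 4124 of all 16727 genes. Changed ratios in the RIP, 168, ran from 110 to 174 when single libraries were left out. The cause of these shifts was not tested, beyond the stricter minimum and the fewer libraries themselves. With the replicate block 34 RNAs were higher and 37 lower after knock-down, 24 enriched and 36 depleted in the RIP, and 37 and 136 ratios changed. Deviations of libraries with the same number correlated at 0.00708, 0.0866 and 0.0191 between shCONTROL and shBCLAF1 and at -0.0319, 0.0125 and 0.0140 between shCONTROL and RIP. Not every library correlated best with its own number, but with 3 libraries per group such values cannot settle whether the numbers pair the libraries. Low counts limit precision, since 199 RNAs have means under 100.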

Other observations

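Below the limit of 20 counts the table held 1278 further antisense genes, of which 107 could be tested after knock-down and 80 in the RIP. After knock-down 8 of these were higher and 3 lower, which is 7.48% and 2.80%, against 15.5% and 16.9% of all genes. In the RIP 8 were enriched and 18 depleted, which is 10% and 22.5%, against 11.0% and 13.5% of all genes. A gene with so few counts may pass the filter on low counts only through the group where it is higher. That selection can set the direction of its call. How many passed in this way was not counted, so these shares are not evidence of enrichment or depletion. PTOV1-AS1, just under the limit, was at 0 in all 6 RNA-seq libraries and had 57, 63 and 59 counts in the RIP. SAP30BP-AS1 and PTPRJ-AS1 were at 0 in all 3 RIP libraries, with 18 to 46 and 19 to 47 counts in the RNA-seq libraries.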
